A study of Mus musculus with 6 samples.

Results

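The Crumbs and Par complexes mark the apical membrane of epithelial cells and hold the junctions just below it in place. In the retina both lie above the adherens junctions of the outer limiting membrane, where the apical ends of Müller glia meet the inner segments of photoreceptors, and loss of Crumbs proteins there disturbs the photoreceptor layer. CRB1 is mutated in inherited human retinal dystrophies. In mouse retina Crb1 is read as a long form in Müller glia and a shorter form in photoreceptors, each with its own start and end. The genes described here are all those whose probe sets on the array carry the names Crb1, Crb2, Mpp3, Mpp4, Mpp5, Inadl (listed under its newer name Patj), Pard3, Pard6a or Prkci. They were chosen by their function and with their differences between the groups of this study already known, so those differences are given as a description and not as a test. Of these 9 genes 8 had 1 or more probe sets, 19 in all among the 45037 on the array. Crb2 had no probe set under its name in the platform annotation and is not analysed here.

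Retinal RNA was measured on 6 Affymetrix arrays at postnatal day 21. The 3 arrays labelled knockout came from mice labelled ERRβ -/-, of mixed C57Bl/6 x Sv129 background (ERRβ is the orphan nuclear receptor encoded by Esrrb), and the 3 wildtype arrays came from C57Bl/6 mice. Every sample held 2 pooled retinas of mixed sex from mice on standard chow, and both groups were dissected into the same preservative. Genotype and strain background therefore differ together and cannot be told apart, and the labels give neither the C57Bl/6 substrain nor whether samples came from separate litters. Replicate arrays may thus measure technical spread only.

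The deposited signals were scaled per array, to a trimmed mean of 500 in replicates 1 and 2 of each group and of 150 in replicate 3 of each group. These 2 sets of arrays are called near 500 and near 150 below, and signals are compared only within a set, apart from a rescaled view of Crb1. Arrays of the same set correlated at 0.910 to 0.950 over the log2 signals of all probe sets, and arrays of different sets at 0.848 to 0.872. Median signals ran from 57.3 to 135. Log2 fold changes are labelled knockout minus wildtype over all 6 arrays (n = 3 in each group), and their standard errors (SE) come from limma with the set of arrays as a block. A probe set counts as called when its adjusted p in that fit of 27022 probe sets is under 0.05. The targeted gene, Esrrb, had a log2 fold change above 0 for each of its 3 probe sets (0.19 to 0.45), and none was called. The brightest gave 3435 and 4012 in labelled knockout and 2951 and 2934 in wildtype arrays near 500, and 2397 in labelled knockout against 1771 in wildtype near 150. The probe set with the smallest change, the only one lower in labelled knockout in either set of arrays, read 442 in labelled knockout against 458 in wildtype near 150. The sources used here do not place these probe sets inside or outside the deletion, so this signal does not check the labels. All 10 measured rod markers, such as Gnat1 and Pde6b, lay above the array median in all 6 arrays, as retinal RNA would give.

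Crb1, a transmembrane protein of the Crumbs complex, had the largest log2 fold changes among the 14 member probe sets kept after the filter on low signal. Both of its probe sets were higher in the arrays labelled knockout. The probe set 1441330_at read 5604 and 5430 in labelled knockout and 1399 and 1243 in wildtype arrays near 500. In the arrays near 150 the same probe set read 1556 in labelled knockout and 1045 in wildtype. Near 500 both labelled knockout arrays lay above both wildtype arrays. Near 150, where each group has 1 array and overlap is not possible, labelled knockout was again above. The same order was found for 16.4% of all kept probe sets. The probe set differed 4.18-fold near 500 and 1.49-fold near 150, with a log2 fold change of 1.57 ± 0.24 over all arrays. The other probe set, 1421451_at, read 945 and 1030 in labelled knockout and 256 and 346 in wildtype arrays near 500. Near 150 it read 314 in labelled knockout and 200 in wildtype. Here too no labelled knockout array lay at or below a wildtype array of its set. The difference was 3.32-fold near 500 and 1.57-fold near 150, and the log2 fold change was 1.37 ± 0.22.

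**Figure D1:**
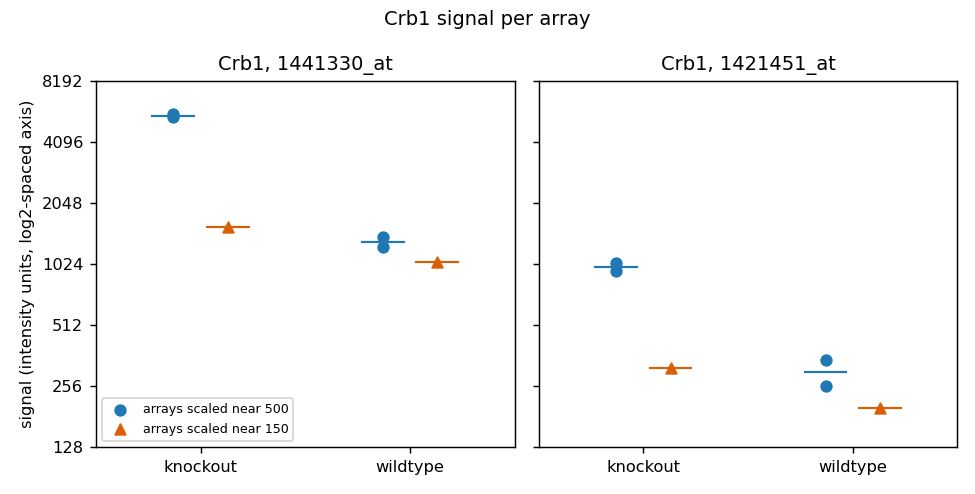
Signal of the 2 Crb1 probe sets in each array (intensity units on a log2-spaced axis), labelled knockout left of wildtype, with circles for arrays scaled near 500, triangles for arrays scaled near 150 and bars for means. In both panels labelled knockout arrays lie above wildtype arrays of the same scale, and the gap is wider near 500 (4.18-fold and 3.32-fold) than near 150 (1.49-fold and 1.57-fold).

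Both Crb1 probe sets were called higher. Of the 14 member probe sets kept after the filter on low signal these were the only 2 called, beside 2.25% of all 27022 kept probe sets called in either direction, 1.04% called higher and 1.22% called lower. Since the members were chosen with this contrast known, nothing is read from that count. Among all kept probe sets 51 had a larger log2 fold change than 1441330_at and 78 a larger one than 1421451_at. With the replicate number as a block both Crb1 probe sets were still called, while the calls over all probe sets went down to 200, against 609 with the set of arrays as a block. The calls on Crb1 rest on few arrays. Neither probe set was called without labelled knockout replicate 1, labelled knockout replicate 2, wildtype replicate 1 or wildtype replicate 2, where the log2 fold changes were 1.38 to 1.47 for 1441330_at and 1.14 to 1.39 for 1421451_at.

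The probe sets of Crb1 were set against each other by their group differences, because signals of different probes have no common scale. The log2 difference of 1441330_at over 1421451_at was 2.57, 2.40 and 2.31 in labelled knockout replicates 1, 2 and 3, and 2.45, 1.85 and 2.39 in wildtype replicates 1, 2 and 3. The values of the groups overlap, and the lowest of the 6 was that of wildtype replicate 2. The rise of 1441330_at was larger than that of 1421451_at by 0.33 log2 units near 500 and smaller near 150, where the difference of the differences was -0.08. Without wildtype replicate 2 the difference over all remaining arrays was -0.01, against 0.20 with it. The 2 Crb1 probe sets were designed on different source sequences, that of 1421451_at being a RefSeq mRNA. The sources used here do not say which Crb1 transcript form each probe set reads.

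The difference in Crb1 was smaller near 150 for both probe sets, by 1.49 log2 units for 1441330_at and by 1.08 for 1421451_at. For a view on a common scale, every array was brought to a trimmed mean of 500, a step chosen after the data were seen and used for values only. On that scale 1441330_at read 5604, 5430 and 5186 in labelled knockout replicates 1, 2 and 3, and 1399, 1243 and 3483 in wildtype replicates 1, 2 and 3. For 1421451_at the values were 945, 1030 and 1046 in labelled knockout and 256, 346 and 667 in wildtype. On that scale the labelled knockout arrays lay close together, and wildtype replicate 3 stood above the other wildtype arrays. A common factor per array does not align single probe sets between the sets, as the spread of shifts given below shows. In which group the sets parted can therefore not be told from these values. On the log2 scale labelled knockout replicate 3 differed from the mean of replicates 1 and 2 by -0.09 and 0.08 for these probe sets, and wildtype replicate 3 by 1.4 and 1.16. These wildtype shifts lay in the upper part of those over the array. From the 25th to the 75th percentile of all kept probe sets, the same shift ran from -0.42 to 0.86 in labelled knockout and from -0.44 to 0.71 in wildtype, and 8.74% of probe sets had a larger wildtype shift than 1441330_at and 12.7% a larger one than 1421451_at. Over all 609 called probe sets the median size of the log2 fold change was 0.72 near 500 and 0.51 near 150, and 439 of them had the larger size near 500.

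Markers of the lens and of the pigment epithelium moved with the groups. On a list of lens genes 9 of 10 measured members were called higher in labelled knockout, and their summed signal was 49827 and 43905 in labelled knockout and 4566 and 4158 in wildtype arrays near 500, and 30773 in labelled knockout against 6851 in wildtype near 150. The retina itself also expresses some of these genes, among them Cryab. On the list of the retinal pigment epithelium 4 of 9 measured members were called higher, Tyrp1, Dct, Pmel and Mlana. Its summed signal was 38796 and 46008 in labelled knockout and 33321 and 34041 in wildtype near 500, and 1739 in labelled knockout against 1023 in wildtype near 150. On a list of vessel and stroma genes Acta2 alone was called, higher, among 7 measured. The median log2 fold change of that list was 0.57 near 500 and -0.07 near 150. Of all 12536 genes 2.75% were called in either direction. No measured marker on these lists was at 0 in any array. RNA quality was read from Actb, whose 3′ over 5′ probe set ratio was 1.82, 1.66 and 1.67 in labelled knockout and 1.83, 1.89 and 2.32 in wildtype replicates 1, 2 and 3. The same ratio of Gapdh was 0.731, 0.719 and 0.731 in labelled knockout and 0.727, 0.712 and 0.779 in wildtype. The part of these in the Crb1 difference was not tested.

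Cells that carry Crb1 showed no call on their marker lists. None of 13 measured Müller glia genes passed the limma test (3 had an unadjusted p under 0.05, beside 21.3% of all genes), with a median log2 fold change of 0.13. Within the sets of arrays the median of these genes was 0.13 near 500 and -0.10 near 150. Their summed signal was 98835 and 112660 in labelled knockout and 98513 and 99243 in wildtype near 500, and 17747 in labelled knockout against 17694 in wildtype near 150. None of 10 measured rod genes passed either (6 had an unadjusted p under 0.05, beside the same 21.3%), and their median was -0.25. Near 500 that rod median was -0.31 and near 150 it was 0.01. The summed rod signal was 233451 and 262528 in labelled knockout and 297252 and 296122 in wildtype near 500, lower in both labelled knockout arrays, and 39944 in labelled knockout against 40838 in wildtype near 150. None of 8 measured cone genes passed the limma test (1 had an unadjusted p under 0.05, beside the same 21.3%), with a median of 0.00. Near 500 that cone median was -0.01 and near 150 it was -0.08. In tissue RNA a change in the number of cells of a type and a change in RNA per cell cannot be told apart.

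The promoter of Crb1 is shown because Crb1 is the member whose signal differed most, and one of Mpp4 because it alone among the members' promoters held a searched motif. RefSeq promoter sequences of GRCm38.p6, from 250 bases before to 50 after a start site, were at hand for 12 start sites of 7 of the 9 genes, Crb2 included and Mpp3 and Mpp5 not. They were searched on both strands for AAGGTCA, the core element bound by ERR receptors, for TCAAGGTCA, its extended form, which contains that element, and for TAATCC, a site bound by the photoreceptor factors Crx and Otx2. None of the 12 held AAGGTCA or TCAAGGTCA, which 4.72% and 0.423% of all 32851 promoters in the table hold, and 1 held TAATCC, which 7.06% of them hold. The sequences below read 5′ to 3′ on the minus strand, at chr1:139377027-139377326 for Crb1 and at chr1:59161587-59161886 for the second of 2 Mpp4 start sites, and capitals mark the reverse of TAATCC, which begins at position -23 relative to that start.
Crb1: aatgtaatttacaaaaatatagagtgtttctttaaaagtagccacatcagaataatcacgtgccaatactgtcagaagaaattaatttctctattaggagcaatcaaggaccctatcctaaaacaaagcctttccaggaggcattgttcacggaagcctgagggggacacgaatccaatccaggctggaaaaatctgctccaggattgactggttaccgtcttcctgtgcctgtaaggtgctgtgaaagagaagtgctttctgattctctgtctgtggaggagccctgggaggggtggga
Mpp4: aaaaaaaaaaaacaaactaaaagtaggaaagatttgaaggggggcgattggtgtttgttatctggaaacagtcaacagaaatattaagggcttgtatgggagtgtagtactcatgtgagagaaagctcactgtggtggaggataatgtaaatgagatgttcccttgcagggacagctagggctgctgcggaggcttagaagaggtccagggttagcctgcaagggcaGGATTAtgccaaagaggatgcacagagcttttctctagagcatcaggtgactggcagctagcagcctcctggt
A match of letters is no evidence of binding, and the table holds 1 Crb1 start site only.

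Of the scaffold proteins that bind the Crumbs tail, Mpp5, also known as Pals1, links Crumbs to Patj. Its 3 probe sets were all kept and none was called, and 2 of them, 1421064_at and 1450113_at, were designed on the same source sequence. The probe set 1450113_at read 819 and 920 in labelled knockout and 958 and 862 in wildtype near 500, and 326 in labelled knockout against 314 in wildtype near 150. The probe set 1421064_at read 761 and 1046 in labelled knockout and 964 and 881 in wildtype near 500, and 242 in labelled knockout against 203 in wildtype near 150. The groups overlapped near 500 in both, as they did for 1434954_at, which read 996 and 845 in labelled knockout and 809 and 869 in wildtype near 500, and 234 in labelled knockout against 279 in wildtype near 150. The Mpp5 log2 fold changes were -0.03 ± 0.10 for 1450113_at, 0.05 ± 0.14 for 1421064_at and 0.00 ± 0.12 for 1434954_at, all within 1 SE of 0.

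Mpp4, a membrane-associated guanylate kinase of photoreceptors, had 1 probe set, 1460368_at. It read 12577 and 13354 in labelled knockout and 13718 and 15095 in wildtype near 500, and 3980 in labelled knockout against 3828 in wildtype near 150. Labelled knockout was lower near 500 and higher near 150, and the log2 fold change was -0.08 ± 0.078. Mpp3, a related scaffold of the outer limiting membrane, was kept with 1419077_at, which read 897 and 823 in labelled knockout and 1003 and 887 in wildtype near 500, and 399 in labelled knockout against 407 in wildtype near 150. These groups overlapped near 500, with a log2 fold change of -0.10 ± 0.10. The second Mpp3 probe set, 1459611_at, did not pass the filter on low signal. It read 5.07 to 74.2, below the array median in every array.

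Patj, the protein with many PDZ domains that Mpp5 holds at the Crumbs complex, had 2 of its 4 probe sets kept. The probe set 1418983_at read 440 and 435 in labelled knockout and 516 and 505 in wildtype near 500, and 100 in labelled knockout against 90.1 in wildtype near 150. For 1418984_at the values were 349 and 380 in labelled knockout and 394 and 291 in wildtype near 500, and 80.8 in labelled knockout against 56.2 in wildtype near 150. The first was lower in labelled knockout near 500 and higher near 150, and the second overlapped near 500. The Patj log2 fold changes were -0.10 ± 0.14 and 0.25 ± 0.19. Of the Patj probe sets below the filter, 1442244_at read 0.909 and 1.43 in labelled knockout and 34.6 and 10.6 in wildtype near 500, but 21.7 in labelled knockout against 21.5 in wildtype near 150. All of these lie below the array medians, as do those of 1440737_at (2.58 to 10.1), and no direction is given for either.

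**Figure D2:**
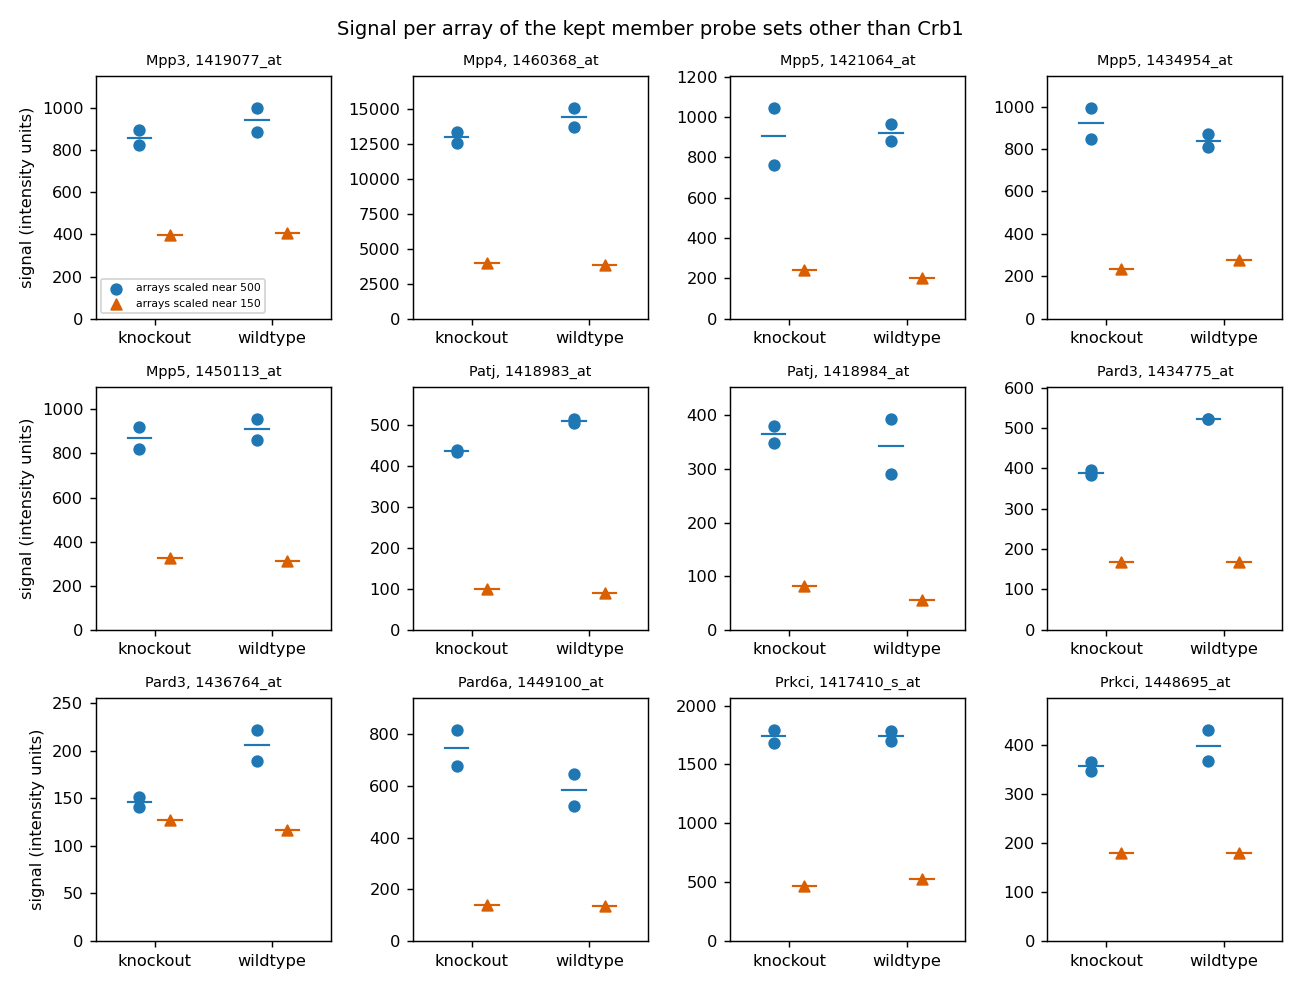
Signal (intensity units, axes from 0) of the 12 kept member probe sets other than those of Crb1 in each array, labelled knockout left of wildtype, with circles for arrays scaled near 500, triangles for arrays scaled near 150 and bars for means. Near 500 the groups overlap in 6 probe sets, and labelled knockout lies below wildtype in 5 and above it in 1.

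In the Par complex, Pard3 is the scaffold with PDZ domains that recruits the others, and 2 of its 4 probe sets were kept. The probe set 1434775_at read 395 and 384 in labelled knockout and 523 and 523 in wildtype near 500, and 167 in labelled knockout against 169 in wildtype near 150. For 1436764_at the values were 141 and 151 in labelled knockout and 222 and 189 in wildtype near 500, and 127 in labelled knockout against 117 in wildtype near 150. Both kept Pard3 probe sets were lower in the labelled knockout arrays near 500, with 0.744-fold and 0.712-fold the wildtype signal. Near 150 this difference was 0.989-fold and 1.08-fold. The Pard3 log2 fold changes over all arrays were -0.29 ± 0.14 and -0.29 ± 0.20, and neither was called. The Pard3 probe sets below the filter, 1420391_at and 1436765_at, read 3.17 to 95.5 and 27.7 to 74.0, below the array median in every array. Near 500 labelled knockout read above wildtype in 1436765_at, which was designed on the same source sequence as 1436764_at, and below it in 1420391_at. At this level no direction is read from either.

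Pard6a, the adaptor that ties the kinase of the Par complex to its partners, had 1 probe set, 1449100_at. It read 679 and 818 in labelled knockout and 524 and 648 in wildtype near 500, and 139 in labelled knockout against 136 in wildtype near 150. Labelled knockout lay above wildtype in both sets, by 1.28-fold and 1.02-fold, with a log2 fold change of 0.25 ± 0.14, and it was not called. Prkci encodes the atypical protein kinase C of the complex. Its probe set 1417410_s_at read 1681 and 1794 in labelled knockout and 1698 and 1787 in wildtype near 500, and 464 in labelled knockout against 530 in wildtype near 150. The second, 1448695_at, read 365 and 348 in labelled knockout and 431 and 367 in wildtype near 500, and 180 in labelled knockout against 180 in wildtype near 150. Their log2 fold changes were -0.07 ± 0.087 and -0.11 ± 0.14. The suffix of 1417410_s_at marks a probe set that can bind more than 1 transcript.

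**Figure D3:**
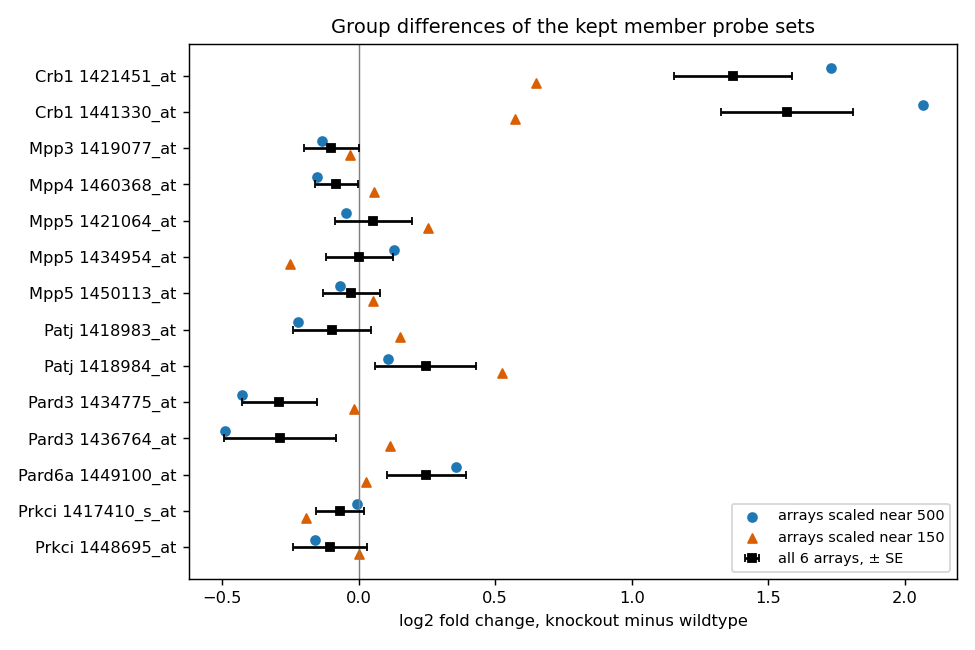
Log2 fold change (labelled knockout minus wildtype) of the 14 kept member probe sets, over all 6 arrays with its SE (squares and bars), within the arrays scaled near 500 (circles) and within those near 150 (triangles). Both Crb1 probe sets lie above 0.5 in both sets of arrays, and 7 of the other 12 change sign between the sets.

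Set beside each other, the 12 kept probe sets of the 7 genes other than Crb1 had log2 fold changes of -0.29 to 0.25, with a median of -0.07, against -0.02 for all kept probe sets. With Crb1 left out none of the 12 was called by limma, which follows from taking out the only 2 member probe sets called. Of all 14 kept member probe sets 2 (14.3%), both of Crb1, had an unadjusted limma p under 0.05, beside 20.4% of all kept probe sets. Near 500 their differences ran from -0.49 to 0.36 and near 150 from -0.25 to 0.52, with opposite signs in the 2 sets for 7 of the 12. Groups that did not overlap near 500 and lay on the same side near 150 were found for 4 of the 14 kept member probe sets, beside 33.6% of all kept probe sets. Labelled knockout lay above in 3 of them, both of Crb1 and that of Pard6a, beside 16.4% of all, and below in 1, 1434775_at of Pard3, beside 17.2%. By size Crb1 had the largest log2 fold changes of the kept members. Since the members were chosen with this contrast known, nothing further is read from that.

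**Figure D4:**
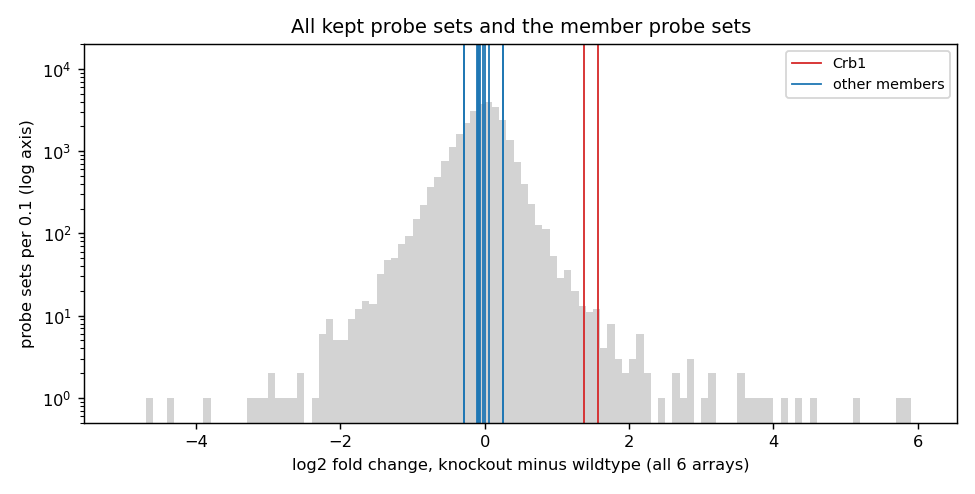
Number of probe sets (log axis) in each step of 0.1 in log2 fold change, labelled knockout minus wildtype, for all 27022 kept probe sets (grey), with red lines at the 2 Crb1 probe sets and blue lines at the 12 other member probe sets. The blue lines lie between -0.29 and 0.25 and the red lines at 1.37 and 1.57.

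Genes whose pattern over the 6 arrays was most like that of Crb1 were found by the root mean square distance of log2 signals, centred within each set of arrays. For 1441330_at the nearest were Lgals3, which encodes a galectin of activated macrophages and glia (distance 0.064), Trhde, an enzyme that degrades thyrotropin-releasing hormone (0.085), Src, a tyrosine kinase (0.11), AI467606 (0.13) and 1500011B03Rik (0.15). Lgals3 read 479 and 401 in labelled knockout and 115 and 102 in wildtype near 500, and 82.2 in labelled knockout against 53.8 in wildtype near 150. For 1421451_at the nearest were Gm3764 (0.061), Bub1b, a kinase of the mitotic checkpoint (0.12), and Mlf1 (0.16). In all 8 the labelled knockout arrays lay above wildtype in both sets, beside 16.4% of all kept probe sets. All but Src and Gm3764 were called higher, beside 1.04% of all kept probe sets. Since the 8 were picked for their likeness to Crb1, this follows from the choice and is no separate result. Signals lay above the array median in 2 of 6 arrays for AI467606 and for Gm3764, 3 for Lgals3, 4 for Src and 5 for Trhde. Those of 1500011B03Rik, Bub1b and Mlf1 did so in all 6. The arrays, their scaling and their RNA are shared by all these genes, and the likeness describes these arrays only.

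The other genes of apical and basal polarity and of the junctions below were read as 1 probe set per gene, the kept one with the highest mean. None of 67 such genes passed the limma test, beside 2.75% of all 12536 genes called. Of the 67, 11 (16.4%) had an unadjusted p under 0.05, beside 21.3% of all genes. Their median log2 fold change was -0.04, against 0.02 for all genes. Of the 17 other partners of the Crumbs and Par complexes, with a median of -0.02, the largest values were those of Crb3, the Crumbs gene of most epithelia (-0.48 ± 0.26, adjusted p = 0.331), and of Rhou, a small GTPase (-0.32 ± 0.17, adjusted p = 0.325). A second kept Crb3 probe set had 0.25, and the value of the first was -0.16 without labelled knockout replicate 2. The second kept Rhou probe set had -0.32. The 13 measured genes of basolateral polarity, the counterpart of the apical complexes, had a median of -0.00. Among them Mark4, a kinase of the Par-1 family, had -0.32 ± 0.22 (adjusted p = 0.436). This value was -0.08 without labelled knockout replicate 1, and the other kept Mark4 probe sets had 0.34 and -0.19. Dlg5, a scaffold of the Discs large family, had -0.22 ± 0.12 (adjusted p = 0.319), and its second kept probe set had -0.36.

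The 21 measured junction genes had a median of -0.04. Nectin1, which encodes an adhesion molecule of adherens junctions, had -0.55 ± 0.23 (adjusted p = 0.223) and 0.20 for a second kept probe set. Ezr encodes ezrin, which joins actin to the apical membrane and is found in the microvilli of Müller glia. It had 0.50 ± 0.27 (adjusted p = 0.331), and its second kept probe set had 0.55 ± 0.15 (adjusted p = 0.0947). Neither of these Ezr probe sets passed, and the value of the first was 0.11 without wildtype replicate 1. The 16 measured genes of the Hippo pathway, which reads cell polarity and contact, had a median of -0.09. Of these Nf2, an upstream regulator, had -0.45 ± 0.15 (adjusted p = 0.141), with -0.47, -0.28 and 0.27 for its other kept probe sets, and the transcription factor Tead2 had 0.42 ± 0.35 (adjusted p = 0.535), and 0.10 without wildtype replicate 1.

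**Figure D5:**
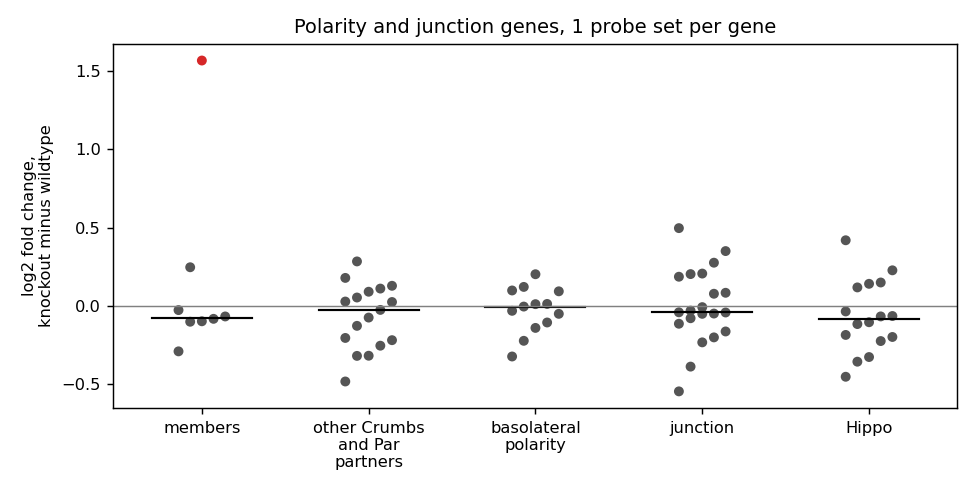
Log2 fold change (labelled knockout minus wildtype, 1 probe set per gene) of the 8 measured members and of the genes on the 4 other lists, with red for called genes, grey for the rest and bars for medians. Crb1 is the single called gene, and the medians of the 4 other lists lie between -0.09 and -0.00.

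Within the arrays near 500 alone, limma called 9 of these 67 genes (13.4%), beside 14.3% of all genes. Of the 9, 8 were lower in labelled knockout and 1 was higher, and 4 kept that sign near 150. Afdn, which encodes afadin, the actin linker of nectins, had -0.63 ± 0.12 near 500 (adjusted p = 0.00814) and 0.10 near 150. Tjp1, which encodes the junction scaffold ZO-1, had -0.28 ± 0.076 near 500 (adjusted p = 0.0358) and -0.14 near 150. Magi1 and Mpdz, scaffolds with PDZ domains, had -0.45 and -0.28 near 500 and -0.05 and -0.06 near 150. Cdh4, a cadherin of the retina, had 0.55 near 500 and -0.04 near 150. The others were Nectin1, Nf2, Rhou and Ccn2, a target of the Hippo pathway (-0.53 near 500 and 0.00 near 150). Any other probe sets of Afdn, Tjp1, Magi1, Mpdz, Cdh4 and Ccn2 were not looked at. In the same arrays both Crb1 probe sets and no other of the 14 member probe sets were called, beside 13.6% of all kept probe sets.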

How the data were processed

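The deposited values are intensities on a linear scale, 1 per probe set and array, and the submitters' processing notes name GCOS 1.4 and MAS5 without their role. The arrays were scaled by the authors to different trimmed means, as the deposited values show (2% trimmed at either end). Of 45101 probe sets 64 controls were left out. Signals were taken to log2 with no further normalization, and a probe set entered the fit if its mean over the arrays reached the 40th percentile (a geometric mean signal of 54.5). The two-sided moderated test of limma (version 3.58.1, R version 4.3.3) compared the groups, with the set of arrays as a block and a trend of variance on signal. Its p-values were adjusted by Benjamini and Hochberg's method over all 27022 that entered. The procedure was tested on simulated data. No read depth exists for arrays, and their number limits the precision.

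The members and all gene lists were chosen with earlier results of these data known. Probe sets were named from the platform's annotation (34945 with 1 symbol, 932 with several, 9160 with none). Every member probe set is given. On the other polarity lists the genes named are those called and the 2 largest absolute changes among the rest. The closest patterns are the 5 nearest genes for the brightest Crb1 probe set and 3 for the other called one. Genes named as called near 500 alone were chosen after their values were seen.

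Deviations from group means correlated at 0.57, 0.67 and 0.843 for arrays of the same replicate number, more than 0.1 for every number. Replicate 3 is the whole set near 150, so these values carry the difference in scaling, and within the arrays near 500 the value was 0.0153. The labels state no pairing. The fit with the replicate number as a block was therefore run as an alternative only.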

Additional observations from a re-analysis of the deposited data

How the results depend on the processing

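The 2 Crb1 calls among the members held with the replicate block, without the filter on low signal, with a filter at the 60th percentile, with 16 added to every signal, with quantile normalization within each set, with each array centred on its median, and in the arrays near 500 alone. With no batch term 0 member probe sets were called (0 of all probe sets by limma, with 118 of all and 0 members at an unadjusted p under 0.05), and without the variance trend 0 (19 of all, and 2 members at an unadjusted p under 0.05). The fit with no batch term left the Crb1 log2 fold changes at 1.57 and 1.37. It counts the difference in scaling between the sets as spread within each group. With 1 array left out in turn the count ran from 0 to 2. The cause of the other changes in the count was not tested. The log2 fold change of 1441330_at for Crb1 ran from 1.38 to 2.06 over all settings and that of 1421451_at from 1.14 to 1.73. The difference between both ran from -0.01 to 0.33 with 1 array left out.

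The count of the 67 other polarity and junction genes past the threshold was 9 in the arrays near 500 alone. With 1 array left out it was 0 without an array near 500, and 10 or 9 without an array near 150. It was 0 in all other settings run. Over all probe sets it was 609. It was 200 with the replicate block, which changed no call among the members or these 67 genes, 405 without the filter, 955 with the 60th percentile filter, 284 with each array centred on its median, and 3687 in the arrays near 500. With 1 array left out it ran from 77 to 3710. It was 77 to 121 without an array near 500, and the cause was not tested. It was 3697 or 3710 without an array near 150. Either of these fits leaves the other array near 150 alone in its set. The group difference then comes from the arrays near 500 only, so these fits largely repeat that setting.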
